A study of Homo sapiens with 6 samples.

Results

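The genes described here encode the proteasome and its helpers (symbols starting with PSMA to PSMG) and the ubiquitin-conjugating enzymes (symbols starting with UBE2, apart from UBE2C). They were picked out by symbol in the deposited table of 3' end regions, with earlier results of these data known. A gene with several regions was represented by the region with the highest mean over the libraries. This gave 73 genes, 45 PSM genes and 28 UBE2 genes, of 9588 gene names in all. They hold 80 of the 14686 regions. The study read the 3' ends of polyadenylated RNA in cells of H9, an established line of human embryonic stem cells (hESC), and in endoderm made from them, with 1 library for each cell type and each of the phases G1, G1/S and S. The 3 hESC libraries came from undifferentiated cells at passage 51, kept on matrigel in medium conditioned by mouse embryonic fibroblasts and taken at 0 h (G1), 2 h (G1/S) and 3 h (S). The 3 endoderm libraries came from the same line after 6 days in RPMI with activin A at 100 ng/ml, in which fetal bovine serum went from 0% on the first day through 0.2% to 2% from the third day, with a medium change on day 3. They were taken at 0 h (G1), 3 h (G1/S) and 6 h (S). Serum, medium and cell type therefore differ together and cannot be told apart. The sources used here do not name the event that starts the hours, nor how cells were brought into phase.

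The proteasome is a barrel of alpha and beta rings, the 20S core, which cuts proteins inside its chamber, and a 19S cap, which binds ubiquitin-tagged proteins, unfolds them with a ring of ATPases and feeds them into the core. Ubiquitin-conjugating enzymes (E2) receive ubiquitin, or a related modifier such as SUMO, NEDD8 or ISG15, from an E1 enzyme and pass it on with the help of a ligase. In cells exposed to interferon, and in many immune cells, the cutting subunits PSMB5, PSMB6 and PSMB7 are replaced in new particles by PSMB8, PSMB9 and PSMB10, the immunoproteasome subunits. UBE2L6, the E2 for the interferon-induced modifier ISG15, is known as an interferon-induced gene too.

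These 4 genes were lower in endoderm than in hESCs, and their promoters are shown for that reason, beside that of PSMB5, the constitutive counterpart of PSMB8. Each run is the 250 bases before the annotated start, 5′ to 3′ on the gene's strand, from RefSeq on GRCh38.p14. That build differs from the one behind the positions of the deposited regions. PSMB8 lies at chr6:32844680-32844929 (minus strand), PSMB9 at chr6:32853942-32854191 (plus strand), PSMB10 at chr16:67936851-67937100 (minus strand), UBE2L6 at chr11:57567936-57568185 (minus strand) and PSMB5 at chr14:23035221-23035470 (minus strand). Capitals mark every match, on either strand, to one of the motifs listed after the sequences.
PSMB8: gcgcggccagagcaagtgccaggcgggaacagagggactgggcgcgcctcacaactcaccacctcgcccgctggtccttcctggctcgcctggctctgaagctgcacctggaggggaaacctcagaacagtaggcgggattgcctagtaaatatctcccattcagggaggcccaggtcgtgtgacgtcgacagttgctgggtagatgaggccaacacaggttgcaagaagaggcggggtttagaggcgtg
PSMB9: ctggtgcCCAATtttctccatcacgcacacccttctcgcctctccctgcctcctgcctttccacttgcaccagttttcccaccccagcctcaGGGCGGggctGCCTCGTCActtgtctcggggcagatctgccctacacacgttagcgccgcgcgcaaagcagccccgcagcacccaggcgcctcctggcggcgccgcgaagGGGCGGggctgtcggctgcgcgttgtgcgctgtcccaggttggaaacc
PSMB10: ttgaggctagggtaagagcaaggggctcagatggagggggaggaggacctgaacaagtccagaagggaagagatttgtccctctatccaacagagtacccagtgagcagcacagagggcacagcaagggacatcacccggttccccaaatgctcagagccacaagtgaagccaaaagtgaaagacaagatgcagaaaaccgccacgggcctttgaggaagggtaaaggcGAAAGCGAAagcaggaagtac
UBE2L6: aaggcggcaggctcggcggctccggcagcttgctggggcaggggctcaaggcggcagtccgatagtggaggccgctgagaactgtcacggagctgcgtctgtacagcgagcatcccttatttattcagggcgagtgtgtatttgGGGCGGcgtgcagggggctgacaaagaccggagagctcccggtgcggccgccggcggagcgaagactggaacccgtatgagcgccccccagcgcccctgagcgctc
PSMB5: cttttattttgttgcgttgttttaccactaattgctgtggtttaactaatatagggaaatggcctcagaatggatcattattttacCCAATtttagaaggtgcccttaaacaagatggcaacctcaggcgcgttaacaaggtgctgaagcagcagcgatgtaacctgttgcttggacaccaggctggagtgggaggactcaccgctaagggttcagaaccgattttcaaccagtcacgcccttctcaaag
The motifs were the core of the antioxidant response element (TGACNNNGC), which NRF1 and NRF2 bind, the CCAAT box (CCAAT), 2 forms of the E2F site (TTTCCCGC and TTTGGCGC), the CHR element (TTTGAA) and the GC box (GGGCGG). A pair linked to interferon, GAS (TTCNNNGAA) and the core of ISRE (GAAANNGAA), was added after the values were seen. PSMB9 holds a CCAAT box 243 to 239 bases before the start, GC boxes at 158 to 153 and at 48 to 43, and an antioxidant response core at 148 to 140. PSMB10 holds an ISRE core 21 to 13 bases before the start. UBE2L6 holds a GC box at 106 to 101, and PSMB5 a CCAAT box at 164 to 160. The PSMB8 run holds no match.

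A promoter with 250 bases before and 50 after the start was found under the symbol for 61 of the 73 genes. The antioxidant response core was in 21.3% of them and in 11.03% of all 27305 promoters of that length. The GC box was in 73.8% against 42.3%, and the CCAAT box in 37.7% against 33.0%. The E2F forms were in 3.28% and 1.64% against 1.42% and 0.553%. The CHR element was in 8.20% against 13.6%, GAS in 8.20% against 6.78% and the ISRE core in 6.56% against 7.06%. These shares describe letters in a window and were not tested.

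The libraries held 2502792 to 6203079 reads, and a value, called signal here, is a library's reads divided by its size factor. Each transcript gives reads at its 3' end only, so levels of different genes are compared without division by length. All 8 endoderm markers on the list, such as SOX17 and FOXA2, rose in endoderm by limma at an adjusted p under 0.05. Of 6 hESC markers measured, DNMT3B and SOX2 fell, SALL4 rose, and POU5F1 was 154, 596 and 259 in hESC and 255, 293 and 312 in endoderm. LIN28 and TDGF1 did not pass the test, with log2 differences of 0.41 and 0.98 toward endoderm. The median over the 6 was 0.20, so the hESC markers did not fall as a set. Markers of other cells moved as well. MIXL1 (mesoderm), PAX6 (neuroectoderm) and VIM rose, while THY1, COL1A1 and the immune marker CD74 fell. KDR, the other mesoderm marker measured, lay lower in all endoderm libraries but did not pass the test (log2 difference -0.79). No library has a replicate of its type and phase, so each p-value reflects only how far these 6 libraries scatter. In bulk RNA, fewer cells of a type and less RNA per cell cannot be told apart.

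All 73 genes passed the filter on low values. Their mean signal over the 6 libraries ran from 8.89 for PSMC6, a 19S ATPase, to 5628 for PSMD2, the scaffold subunit of the 19S base, a 633-fold range. The median was 98.0, beside 76.0 for the best region of each gene name. The 31 subunits of the standard 20S core and the 19S cap covered the whole of that range, although the finished particle holds its subunits in fixed proportions. The levels of the members were higher at higher GC content of the last 500 bases of their transcripts (Spearman 0.65 over 73 genes, which share the same libraries). This is a description of the table and its bearing on the levels was not tested. The plot of levels by role shows the spread within each complex.

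**Figure D1:**
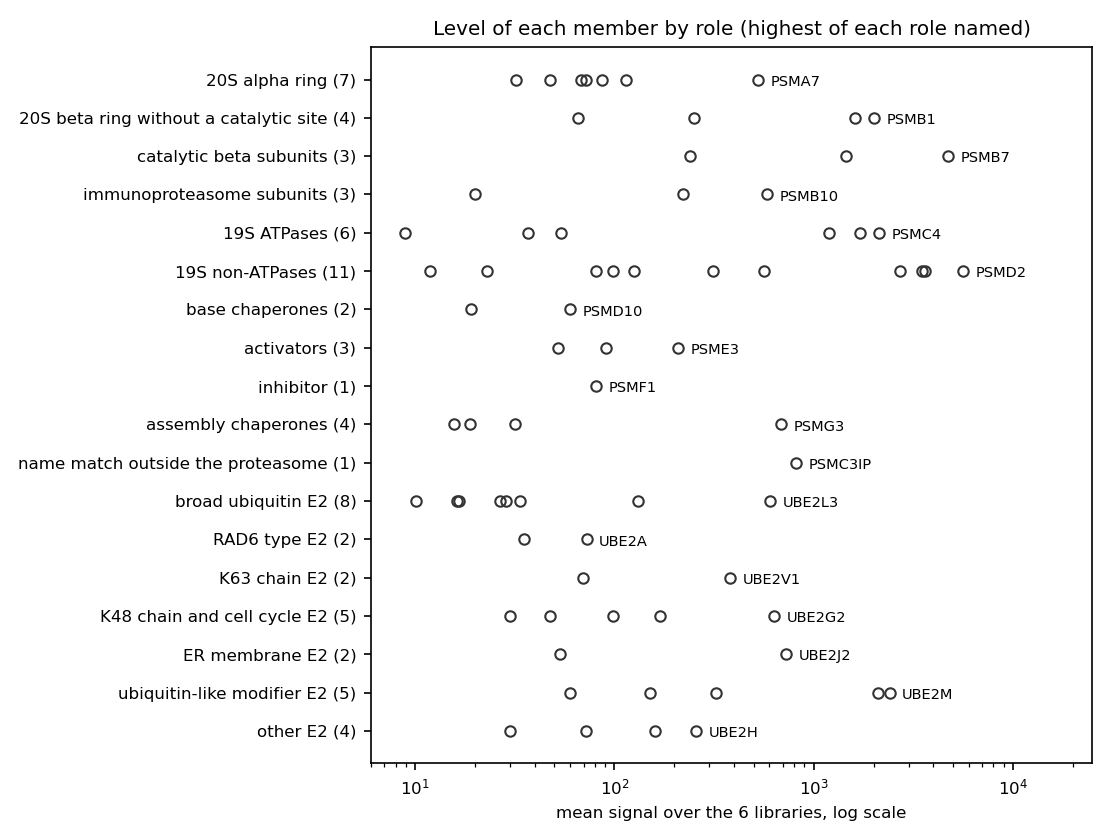
Mean signal of each gene over the 6 libraries (x axis, log scale, reads divided by size factor) by role (rows, number of genes in brackets), with the highest gene of each role named. The 19S ATPases alone run from 8.89 (PSMC6) to 2128 (PSMC4).

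The 13 genes with a mean of at least 1000 include PSMB7, with 4248, 5136 and 4505 in the hESC libraries and 4110, 6264 and 4281 in the endoderm libraries, given here and below in the order G1, G1/S, S. PSMD2 had 5121, 5272 and 5603 in hESC and 4696, 6799 and 6277 in endoderm. UBE2M, the E2 for NEDD8, had 2339, 2919 and 1588 in hESC and 1573, 3728 and 2302 in endoderm. In each of the 13 the hESC and endoderm libraries overlapped, the differences lay between -0.32 and 0.60 on the log2(signal + 1) scale, and none passed the test. At the low end, 21 genes had a mean under 50, among them PSMC6 with 18.2, 8.33 and 11.2 in hESC and 5.52, 6.65 and 3.42 in endoderm. All 73 genes together took 1.07%, 1.09% and 1.25% of hESC reads in that order, and 1.07%, 0.994% and 0.995% of those of endoderm.

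The comparison of endoderm with hESC asked whether the machinery differs between the cell types once phase is accounted for. In limma, with a term for phase and Benjamini-Hochberg adjustment over all 14657 regions tested, 7 of the 73 genes (9.59%) passed an adjusted p of 0.05, beside 14.5% of all regions. The immunoproteasome genes PSMB8, PSMB9 and PSMB10 fell, as did UBE2L6 and UBE2W, which attaches ubiquitin to the amino end of proteins. PSMC1, a 19S ATPase, and UBE2D1, an E2 that works with many ligases, rose. The 2 higher genes stand beside a background of 6.9% of regions higher, and the 5 lower genes beside 7.6% lower, so the shares among the members do not exceed the background. The endoderm libraries lay wholly above the hESC libraries for 8 genes (10.96%, background 14.7%) and wholly below for 15 (20.5%, background 18.7%), and they overlapped for 50. Differences were small for most: 42 genes (57.5%) lay within 0.5 and 55 (75.3%) within 1 on the log2 scale, beside 43.1% and 69.6% of the best regions of all gene names. The median difference was -0.09 over the 73 genes and 0.02 over all regions.

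**Figure D2:**
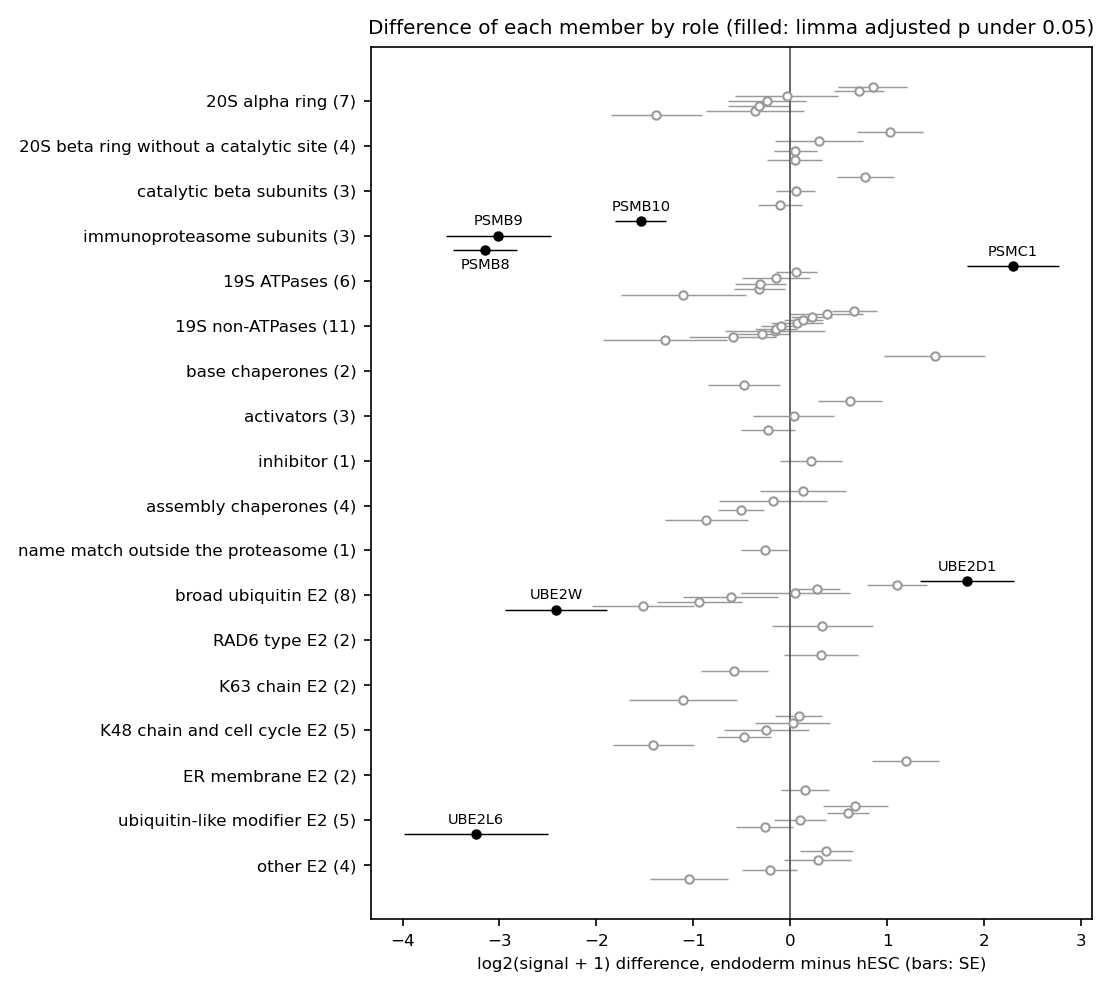
Difference of log2(signal + 1) between endoderm and hESC for each of the 73 genes (x axis, bars SE from limma) by role (rows), filled where the adjusted p is under 0.05. The 3 immunoproteasome genes lie between -3.15 and -1.54, and most other proteasome genes lie near 0.

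All 3 immunoproteasome genes fell. PSMB8, which takes the place of PSMB5 and cuts after hydrophobic residues, had 301, 535 and 362 in hESC and 50.4, 41.6 and 37.7 in endoderm. The lowest hESC library lay well above the highest endoderm library. The difference was -3.15 (SE 0.33, limma adjusted p = 0.00342), and the hESC mean was 9.24 times the endoderm mean. PSMB10, the counterpart of PSMB7, had 787, 906 and 905 in hESC and 239.6, 424 and 255 in endoderm. Its groups did not overlap either, and the difference was -1.54 (SE 0.26, limma adjusted p = 0.0130). PSMB9, the counterpart of PSMB6, had 31.8, 42.7 and 33.7 in hESC and 4.83, 4.99 and 1.71 in endoderm. The endoderm values rest on 7, 3 and 1 reads, and the 95% counting interval of the last is 0.0433 to 9.54. The difference for PSMB9 was -3.01 (SE 0.54, limma adjusted p = 0.0152).

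**Figure D3:**
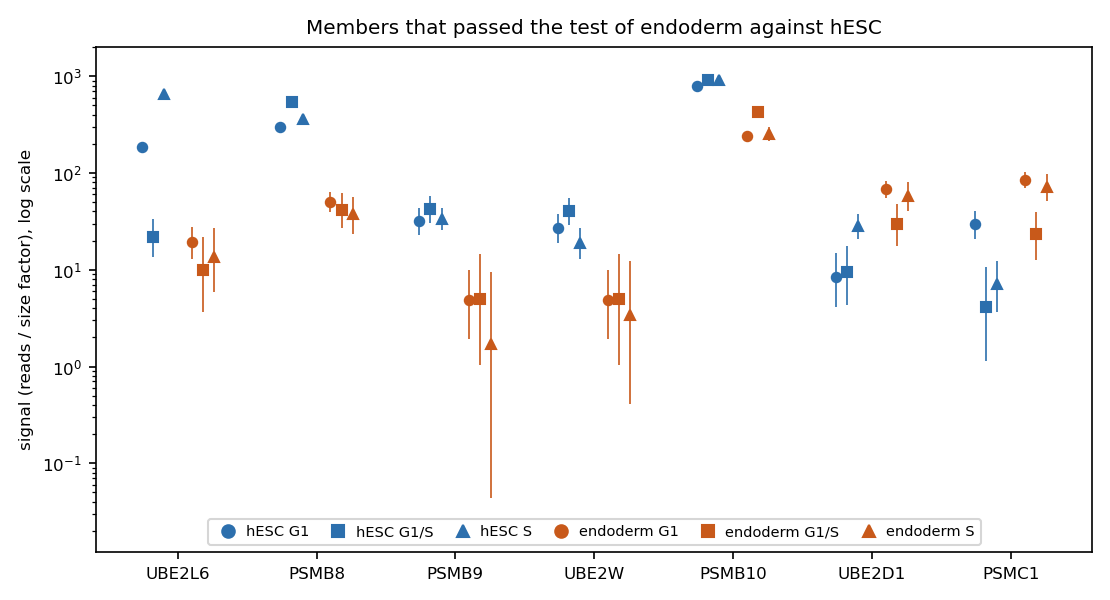
Signal in each library (y axis, log scale, bars 95% Poisson counting intervals) of the 7 genes that passed the test, with hESC in blue and endoderm in orange, and G1, G1/S and S as circle, square and triangle. The 3 endoderm points lie below the 3 hESC points for UBE2L6, PSMB8, PSMB9, UBE2W and PSMB10, above them for UBE2D1, and overlap them for PSMC1.

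The call of PSMB8 held without any single library and without both G1/S libraries, where its limma adjusted p was at its highest of all alternatives, 0.0437. With the phase term, a phase that loses 1 library no longer enters the difference between cell types. Leaving out either library of a phase, or both, therefore gives the same difference, and only the p-values can vary. Such omissions are 1 check per phase, not separate checks, here and below. PSMB10 lost its call without hESC G1/S or endoderm G1/S, without both, and without the intensity trend (highest limma adjusted p 0.0596). PSMB9 lost it without hESC G1/S, hESC S or endoderm G1/S and without both G1/S libraries (highest limma adjusted p 0.0811). Of 3 markers listed for immune cells, which carry immunoproteasomes, 1 was measured. CD74, the invariant chain, had 45.4, 58.3 and 265 in hESC and 17.3, 4.99 and 13.7 in endoderm, and its part in the result was not tested. PTPRC and HLA-DRA were not analysed here.

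Within each library the ratio to the constitutive counterpart removes any common scaling. PSMB8 stood at 167%, 378% and 191% of PSMB5 in hESC, and at 11.5%, 21.7% and 12.9% in endoderm. PSMB10 stood at 18.5%, 17.6% and 20.1% of PSMB7 in hESC and at 5.83%, 6.77% and 5.96% in endoderm. PSMB9 was minor throughout, at 2.69%, 2.62% and 1.98% of PSMB6 in hESC and at 0.371%, 0.305% and 0.139% in endoderm. The hESC and endoderm ratios did not overlap in any pair. The counterparts themselves did not pass the test. PSMB6 had 1181, 1629 and 1700 in hESC and 1304, 1635 and 1231 in endoderm, and PSMB5 had 180.1, 142 and 190 against 437, 191 and 293 (difference 0.78, limma adjusted p = 0.111).

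**Figure D4:**
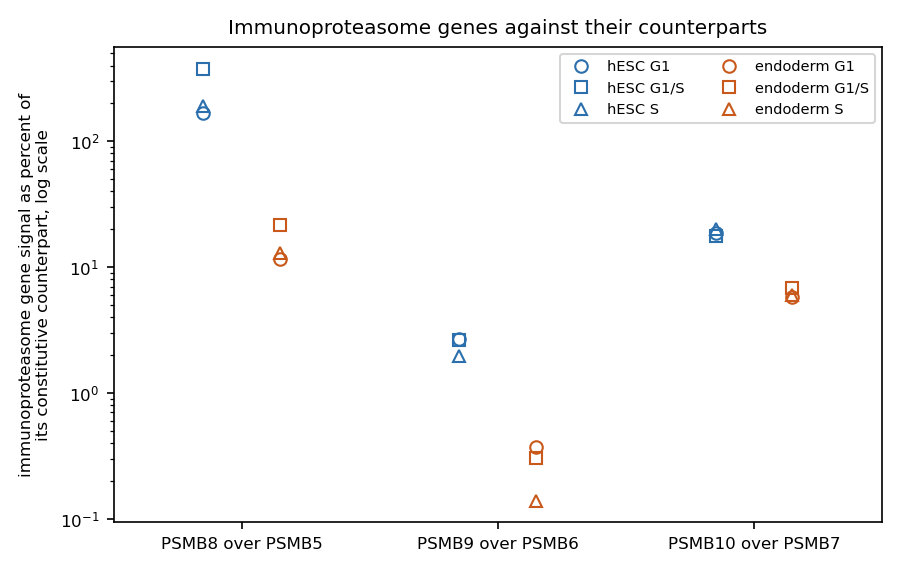
Signal of each immunoproteasome gene as a percentage of its constitutive counterpart in the same library (y axis, log scale), hESC in blue and endoderm in orange, with G1, G1/S and S as circle, square and triangle. The 3 hESC ratios lie above the 3 endoderm ratios in each pair, and only PSMB8 exceeds its counterpart, in hESC.

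In the deposited coordinates, on the older build hg18 (NCBI36), the region of PSMB8 (chr6:32916518-32916736, minus strand) lies 18599 bases from that of PSMB9 (chr6:32935117-32935239, plus strand), in the major histocompatibility complex, with TAP1 between them. The TAP1 region between them, of a peptide transporter gene, was weak, with 11.3, 4.16 and 15.9 in hESC and 7.60, 1.66 and 3.42 in endoderm. A second TAP1 region, listed 28909456 bases from that of PSMB8, had 0, 3.12 and 18.9 in hESC and 13.1, 4.99 and 18.8 in endoderm. As the one with the higher mean, it stands for TAP1 in the list that follows. The other genes of antigen presentation and interferon response were listed after the values of PSMB8 had been seen, so they are given as values. HLA-C had 224, 257 and 238 in hESC and 583, 223 and 614 in endoderm. B2M had 87.0, 42.7 and 149 against 111, 38.3 and 61.6, and IRF1 60.5, 115 and 62.6 against 36.6, 74.9 and 66.8. TAPBP, a loading factor for class I molecules, had 29.5, 5.21 and 15.9 in hESC and 4.83, 1.66 and 0 in endoderm, where the count of 0 allows up to 5.13. In 6 of the 8 genes of that list, TAP1 included, the hESC and endoderm libraries overlapped, HLA-E lay above and TAPBP below.

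The rest of the 20S core did not pass the test in either direction. The 7 alpha ring genes had a median difference of -0.24. PSMA7, the highest of them, had 312, 466 and 427 in hESC and 668, 629 and 654 in endoderm, without overlap (difference 0.71, limma adjusted p = 0.0989). PSMA3 had 141, 51.0 and 128 in hESC and 37.3, 48.2 and 27.4 in endoderm, where only hESC G1/S came near the endoderm level (difference -1.38, limma adjusted p = 0.0866). DESeq2 on the recovered reads, and limma after a correction for GC content, did call PSMA3 lower. Of the 4 beta subunits without a catalytic site, PSMB4 had 154, 118 and 188 in hESC and 495, 139.7 and 419 in endoderm, with endoderm G1/S inside the hESC range (difference 1.03, limma adjusted p = 0.0821).

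Among the 19S ATPases, PSMC1 rose while the other 5 did not pass the test. PSMC1 had 29.5, 4.16 and 7.09 in hESC and 84.9, 23.3 and 71.9 in endoderm. Endoderm was higher in each phase, but the G1 value of hESC exceeded the G1/S value of endoderm (difference 2.30, SE 0.48, limma adjusted p = 0.0229). The call was lost without hESC G1/S, hESC S, endoderm G1/S or endoderm S, with a highest limma adjusted p of 0.109. It was also lost without both G1/S libraries and without the phase term, so it depends on pairing the cell types by phase. RefSeq names 13 pseudogenes after PSMC1, so reads could be shared with copies and its level is uncertain. PSMC4, the highest ATPase gene, had 1786, 2578 and 1839 in hESC and 1601, 2840 and 2126 in endoderm. PSMC6 gave a difference of -1.10 on few reads (limma adjusted p = 0.259).

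None of the 11 non-ATPase subunits of the 19S cap passed the test, and their median difference was -0.09. PSMD7 came nearest, with 393, 391 and 526 in hESC and 616, 645 and 809.6 in endoderm and no overlap (difference 0.66, limma adjusted p = 0.0947). PSMD14, the deubiquitinase that strips ubiquitin before a protein enters the core, had 130.1, 40.6 and 131 in hESC and 82.9, 58.2 and 41.1 in endoderm. PSMD12 had 36.3, 6.25 and 12.4 against 6.21, 3.33 and 6.85, with a wide spread among the hESC values. PSMD4, a ubiquitin receptor of the cap, had 232, 350 and 338 against 309, 286 and 358. The base chaperone PSMD9 had 9.08, 2.08 and 23.0 in hESC and 27.6, 13.3 and 39.4 in endoderm (difference 1.49, limma adjusted p = 0.0940).

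The proteins that open, block or assemble the core also stayed short of the threshold. The activator PSME3, a nuclear cap, had 193, 288 and 198 in hESC and 189.9, 195 and 187 in endoderm. PSME1, an interferon-induced activator often found with the immunoproteasome, had 58.3, 47.9 and 39.6 against 89.1, 25.0 and 53.1 (difference 0.03, limma adjusted p = 0.964). The inhibitor PSMF1 had 55.2, 58.3 and 108 against 70.4, 56.6 and 137. Of the 4 assembly chaperones, PSMG3 lay lower in all endoderm libraries, at 519, 617 and 573 against 799, 758 and 871 (difference -0.51, limma adjusted p = 0.171). Counting the proteasome genes outside the immunoproteasome, 1 of 41 rose and 0 fell by limma (2.44%), beside 14.5% of all regions. Their median difference was -0.04. PSMC3IP, a meiotic recombination factor that matches by name only, had 908, 899.6 and 851 against 947, 712 and 594.

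Among the UBE2 genes, 1 rose and 2 fell of 28 (10.7%), beside 14.5% of all regions called in either direction. Their median difference was 0.04. UBE2L6, the E2 for ISG15, had 185, 21.9 and 654 in hESC and 19.3, 9.98 and 13.7 in endoderm. Each hESC value lay above every endoderm value, but hESC G1/S did so narrowly, and its 95% counting interval of 13.5 to 33.4 overlaps that of endoderm G1, 12.8 to 27.9. The hESC values themselves spanned a far wider range than the endoderm values. The difference was -3.24 (SE 0.74, limma adjusted p = 0.0307). Without hESC S, the highest library, the limma adjusted p was 0.0834 and the difference -2.12. Endoderm S then has no partner of its phase, so this difference rests on the G1 and G1/S pairs alone. Leaving out endoderm S instead gives the same difference, and there the call held. Without the intensity trend it was lost. CD74 was highest in hESC S too, and its part in the result was not tested. ISG15 itself had 1878, 2961 and 1692 in hESC and 1830, 3477 and 2318 in endoderm, and overlapped (difference 0.22, limma adjusted p = 0.502).

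None of the other modifier E2 genes passed the test. UBE2F, the second NEDD8 enzyme, had 346, 303 and 409.9 against 285, 364 and 238. UBE2Z, which can load ubiquitin and FAT10, had 65.8, 29.2 and 45.5 against 89.8, 54.9 and 73.6.

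Of the 8 E2 genes that serve many ligases, UBE2D1 rose and UBE2W fell. UBE2D1 had 8.32, 9.37 and 28.4 in hESC and 67.7, 29.9 and 58.2 in endoderm, where the gap between the groups is narrow (difference 1.82, SE 0.49, limma adjusted p = 0.0469). This call was lost without each of the 6 libraries in turn, which give 1 difference per phase left out. It was also lost with edgeR on the recovered reads, with TMM scaling and after the GC correction, among others. The highest limma adjusted p was 0.133. UBE2W had 27.2, 40.6 and 18.9 in hESC and 4.83, 4.99 and 3.42 in endoderm, the endoderm values on 7, 3 and 2 reads (difference -2.41, SE 0.53, limma adjusted p = 0.0268). It lost its call without hESC G1/S, hESC S, endoderm G1/S or endoderm S, and without both G1/S libraries (highest limma adjusted p 0.127). The close relatives of UBE2D1 did not pass the test in the reported fit, and their differences had both signs. UBE2D2 had 71.1, 76.0 and 105 against 200.2, 163 and 175 (difference 1.10, limma adjusted p = 0.0532), UBE2D3 37.1, 44.8 and 30.1 against 11.7, 21.6 and 25.7 (difference -0.94, limma adjusted p = 0.175), and UBE2D4 26.5, 19.8 and 76.8 against 18.0, 6.65 and 11.98 (difference -1.52, limma adjusted p = 0.0888). UBE2D2 was above the hESC libraries in all 3 endoderm libraries and the other pair below. DESeq2 and the GC correction did call UBE2D2 higher, and limma called UBE2D4 lower without hESC G1 or without endoderm G1.

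UBE2J1, which sits in the endoplasmic reticulum membrane and tags misfolded proteins there, had 34.0, 32.3 and 29.5 in hESC and 88.4, 61.6 and 75.3 in endoderm. The hESC values were tight and the groups stood apart, yet the difference of 1.19 missed the threshold (limma adjusted p = 0.0576). UBE2J2 and UBE2G2, which serve the same pathway, differed by 0.15 and 0.09. UBE2G1, a maker of ubiquitin chains, had 97.6, 46.9 and 64.4 in hESC and 29.7, 31.6 and 15.4 in endoderm (difference -1.41, limma adjusted p = 0.0618). It was called lower after the GC correction. UBE2V1, an inactive partner of the E2 that builds lysine-63 chains, had 620, 159 and 884 in hESC and 219.6, 261 and 152 in endoderm, so hESC G1/S fell inside the endoderm range. RefSeq names 15 pseudogenes after UBE2V1 and 11 after UBE2Q2, so their reads are uncertain as well. UBE2Q2 had 31.8, 46.9 and 40.8 against 13.8, 29.9 and 15.4. UBE2H, which serves the CTLH ligase, had 219, 232 and 217 against 310.02, 235 and 330.4. The RAD6 type pair UBE2A and UBE2B, known from DNA damage tolerance and histone H2B, differed by 0.32 and 0.33, both overlapping.

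The surrounding pathway was read from a list of 57 genes, of which 46 were measured. By limma 2 rose and none fell, beside 6.9% of all regions higher and 7.6% lower, so these calls do not exceed the background. The median difference was 0.05, and both that rose are listed as regulators. NFE2L2 (NRF2), a stress factor that binds the antioxidant response element, had 7.57, 3.12 and 3.54 in hESC and 41.4, 18.3 and 175 in endoderm (difference 3.27, limma adjusted p = 0.0237). NFE2L1 (NRF1), known to raise proteasome genes when the proteasome is blocked, had 139, 103 and 102 in hESC and 279, 239.6 and 486 in endoderm (difference 1.49, limma adjusted p = 0.0291). The endoderm libraries lay above the hESC libraries for both genes. The antioxidant response core was in the promoters of 9 PSM genes and 4 UBE2 genes, and any link with these regulators was not tested. VCP, the unfoldase that hands tagged proteins to the proteasome, had 1746, 2980 and 2095 in hESC and 3282, 4289 and 3731 in endoderm (difference 0.76, limma adjusted p = 0.0501). UBB, a ubiquitin gene, had 949, 87.5 and 2741 in hESC and 302, 145 and 178 in endoderm, highest in hESC S and lowest in hESC G1/S (difference -1.62, limma adjusted p = 0.166). UBA1, the main ubiquitin E1, had 3225, 5443 and 3505 against 3380.5, 6214 and 4851.

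Genes with several 3' end regions give a second reading, and 6 of the 73 have one. PSME4, an activator of nuclear proteasomes, was represented by a region with 74.9, 64.6 and 69.1 in hESC and 154, 71.5 and 111 in endoderm (difference 0.62, limma adjusted p = 0.226). Its weaker region, 29475 bases upstream on the minus strand, had 37.1, 27.1 and 23.6 in hESC and 6.90, 8.32 and 1.71 in endoderm and fell (difference -2.35, limma adjusted p = 0.0342). The 2 regions of this gene therefore differ in sign, and that contrast itself was not tested. PSMB9 has a weaker region listed 28925104 bases away on the same chromosome, with 12.9, 3.12 and 11.2 in hESC and 11.7, 0 and 6.85 in endoderm (difference -0.94, limma adjusted p = 0.418). The zero, in endoderm G1/S, allows up to 4.99. The second TAP1 region is listed close to it. Whether these distant positions are a second copy of the same stretch of the complex could not be checked without the genome of that build, so this region is an uncertain reading of PSMB9. Averaging both regions took the call from PSMB9. In PSMD1 the main region differed by 0.38 and the next by 1.08, neither past the threshold.

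The phase comparisons ask whether these genes change from G1 through G1/S to S, in a model that assumes the same phase effect in both cell types. Limma called 0 of 73 genes and 0% of all 14657 regions in each of S against G1, G1/S against G1 and S against G1/S. At an unadjusted p under 0.05 the counts were 2, 15 and 10 of the 73 genes, and 497, 2002 and 1552 regions. edgeR called 0 in each, while DESeq2 called 1, 108 and 152 regions. Its calls in S against G1/S include UBE2L6 and UBE2R2, both higher in S. The UBE2L6 values given above rose from G1/S to S far more in hESC than in endoderm, where reads were few. UBE2R2, an E2 that extends chains for cullin ligases, had 82.5, 31.2 and 199.7 in hESC and 125, 39.9 and 109.5 in endoderm, lowest in G1/S in both cell types (difference 2.04, limma adjusted p = 0.463). PSMF1 was highest in S in both, at 108 and 137, and its S against G1 difference was 0.95 (limma adjusted p = 0.982). PSMD6 was lower in S than in G1 in both, with 46.9, 9.37 and 18.3 in hESC and 36.6, 18.3 and 8.56 in endoderm (difference -1.64, limma adjusted p = 0.982).

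The G1/S values of these genes moved with the base composition of their transcripts. Of 36 genes with a GC content below the members' median, 30 were lower in G1/S than in G1, with a median difference of -0.71. Of the 37 at or above it, 25 were higher and the median was 0.24, and over all regions it was 0.07. PSMB3, a subunit of the beta ring, had 1010.0, 2349.9 and 1463 in hESC and 1250.4, 2329 and 1327 in endoderm, highest in G1/S in both (difference 1.06, limma adjusted p = 0.362). PSMA5 had 66.6, 28.1 and 49.0 in hESC and 73.9, 13.3 and 54.8 in endoderm, lowest in G1/S in both (difference -1.80, limma adjusted p = 0.362). The G1/S against G1 difference went with GC content at a Spearman of 0.43 over the 73 genes. The deviation of G1/S from the mean of G1 and S in hESC went with that in endoderm at 0.51. These correlations are across genes of the same libraries and carry no test. Across 8819 regions with a GC value, a library's deviation from the mean of all libraries went with GC content at 0.42 in hESC G1/S, 0.25 in endoderm G1/S and -0.41 in endoderm G1, and between -0.16 and 0.00 in the other 3. After a correction of each library for GC content, added after the data were seen, the median G1/S against G1 difference went from -0.27 to -0.0054 for PSM genes and from -0.29 to -0.03 for UBE2 genes. That of S against G1/S went from 0.18 to 0.03 and from 0.14 to -0.0016. Over all regions tested the 2 medians went from 0.07 to -0.05 and from -0.04 to -0.0039, with 8819 regions after the correction. The correction takes out shifts that go with GC content by design, so these changes are not a test. Limma again called 0 of the 73 genes in each phase comparison. For endoderm against hESC the correlation with GC content over the 73 genes was 0.15.

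**Figure D5:**
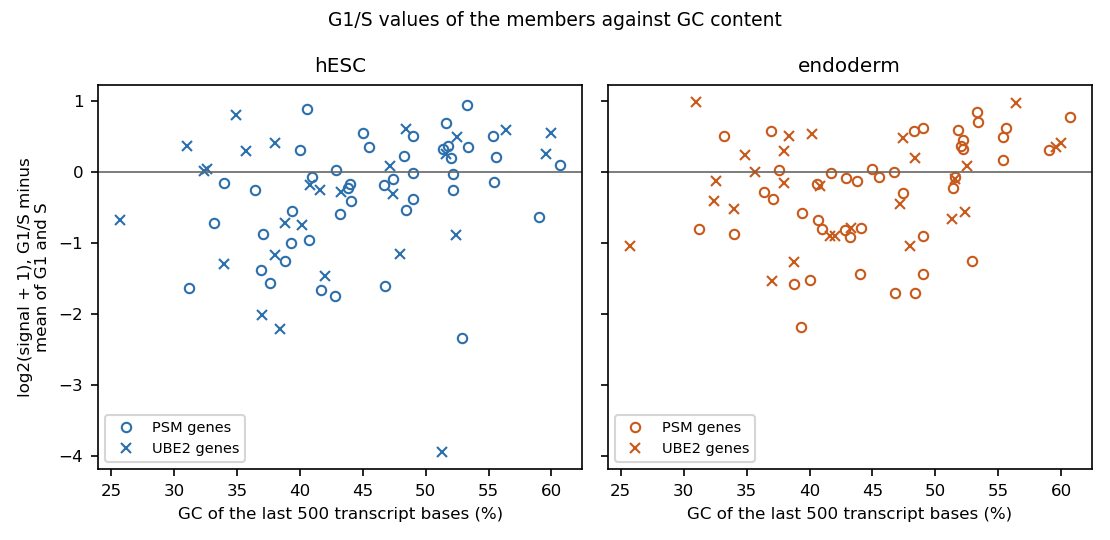
Deviation of the G1/S library from the mean of G1 and S on the log2(signal + 1) scale (y axis) against the GC content of the last 500 transcript bases (x axis) for the 45 PSM genes (circles) and 28 UBE2 genes (crosses), in hESC (left) and endoderm (right). Genes of low GC content lie mostly below 0 in both cell types, and the lowest point in hESC is UBE2L6.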

How the data were processed

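The authors deposited 1 table with a linear signal value per library and 3' end region. CASAVA 1.5, Bowtie 0.12.7 and DESeq 1.5.24 stand in the submitters' processing notes, with hg18 (NCBI36) as the build and no role for each tool. The design allowed for log-scale values. At a tolerance of 1e-06, 100% of the deposited signal values are whole reads divided by 1 constant per library. How reads of near-identical copies were treated, and whether counting used strand, is not stated in the sources used here.

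Regions with log2(signal + 1) of at least 1 in at least 3 of 6 libraries were kept, which left 14657. Cell type and phase were fitted with limma 3.58.1 (eBayes with trend, 2 residual degrees of freedom, prior 5.46) in R 4.3.3, with Benjamini-Hochberg adjustment and a threshold of 0.05. The pseudocount of 1 understates changes of weak genes. Scripts were tested on simulated reads. Recovered reads went to edgeR 4.0.16 and DESeq2 1.42.0 as alternatives. Intervals are exact Poisson at 95% and cover counting error only, as does the floor of 3 reads for a value of 0, because PCR copies are not separate molecules.

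The members and gene lists were chosen with earlier results of these data known. Named genes were those called, the 6 largest differences in each direction per family, the 4 largest phase differences in each direction for S and G1/S against G1, the highest of each role, PSMB5 to PSMB10, and genes with several regions. 48 of the 73 qualify. Others are named to complete a role. No change of at least 2-fold in opposite directions between cell types, with separate counting intervals in each, was found for S against G1. PSMA8, PSMB11, PSMD5, PSME2, UBE2E3, UBE2N, UBE2NL, UBE2S and UBE2U were not analysed here. The values of 1 further gene are not reported here.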

Additional observations from a re-analysis of the deposited data

How the results depend on the processing

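Of the single values named, 1193 repeats under an alternative kept direction and side of the threshold, 34 lost the call, 8 gained one and 0 changed sign of a called value. The members higher and lower in endoderm were 2 and 5 in limma as reported. With regions of a mean log2 of at least 5 the counts were 0 and 3 (1013 regions called of 7470). That filter left 55 members tested, and PSMC1, UBE2D1, PSMB9 and UBE2W were not among them. Their calls are absent there because they were not tested. The counts were 1 and 3 without the intensity trend, and 0 and 2 without both G1/S libraries (415 regions called). Higher members were 0 without the phase term and 1 each with TMM and with edgeR. Leaving out 1 library gave 0 to 1 higher and 2 to 6 lower members, and 419 to 2344 regions called against 2125, with 419 without hESC G1/S, 571 without endoderm G1/S, 975 without hESC S and 1200 without endoderm S. The median difference was -0.22 to -0.000053 for PSM genes and -0.26 to -0.016 for UBE2 genes in those repeats, and -0.12 for UBE2 genes after the GC correction, which was chosen after seeing the data, against 0.04 as reported. With 1 library left out, regions called in S against G1, G1/S against G1 and S against G1/S numbered 0 to 201, 0 to 329 and 0 to 245. Members called were 0, 0 to 1 (UBE2M, higher in G1/S without hESC G1) and 0 to 1 (UBE2R2 without hESC G1, UBE2L6 without endoderm S, both higher in S). DESeq2 called 1, 108 and 152 regions, with 2 members in the last. A phase left with 1 library was assumed to vary like the others, and it adds nothing to the difference between cell types. The differences and their medians are therefore the same whichever library of a phase is left out, while the calls can vary. The phase term of the reported fit pairs the cell types by phase, and the fit without it is given above. Depth limits the weak genes: values near 3 reads, as for PSMB9 and UBE2W in endoderm, cannot be ranked. The causes of lost calls were not tested.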
